A study of Mus musculus with 26 samples.

Results

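Control mice of the study were compared with each other across time, 7 days against 3 days after the last of 5 daily tamoxifen injections. These were 13 of the 26 libraries of the series, chosen by their labels alone, with 7 control libraries of day 3 and 6 of day 7. Each library came from 1 mouse and read the 3′ ends of polyadenylated transcripts of a piece of proximal small intestine (SI) taken just after the stomach. The control mice were C57BL/6N animals of 8 to 12 weeks that were homozygous for the *loxP*-flanked (fl/fl) allele which the study deletes in other mice. They lacked the Villin-creERT2 transgene, so the allele stayed intact although they received tamoxifen like their littermates. The piece held epithelium, lamina propria, muscle and enteric nerves together, and no untreated mice were among the libraries. Day and anything that coincided with it cannot be told apart, and no source used here states the batches of the libraries.

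The proximal SI takes up most dietary fat, sugar and amino acids. Stem cells at the base of the crypts give rise to dividing progenitors, and their daughters mature into absorptive enterocytes and secretory cells while they move up the villus, where they are shed within days. Enterocytes digest nutrients with enzymes of the brush border, take them up with transporters of the SLC families, and re-esterify fatty acids into triacylglycerols that leave the cell in chylomicrons, lipoprotein particles built on apolipoprotein B. The epithelium rests on a lamina propria rich in plasma cells, macrophages, vessels and fibroblasts and on layers of smooth muscle with enteric neurons, and T cells lie between the epithelial cells.

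The depth was 3720114 to 5636866 counts per library at day 3 (median 4863778) and 4605243 to 6337900 at day 7 (median 5522174.5; difference of means 772300, two-sided exact permutation test over 1716 splits, p = 0.0728). The 10 most abundant genes took 28.4 ± 2.31% of the counts at day 3 (SD, n = 7) and 25.5 ± 1.88% at day 7 (SD, n = 6; exact permutation test, p = 0.0338). This p lay between 0.0519 and 0.0694 without replicate 2, 5 or 7 of day 3 or replicate 2, 5 or 6 of day 7 (−2.85 to −2.37 percentage points) and was 0.667 within the shared range described next. A count was found for 22442 ± 463 genes at day 3 and for 21627 ± 608 at day 7 (SD; exact permutation test, p = 0.0216), and this difference of −815 genes was −642 without replicate 2 of day 7 (exact p = 0.0543) and −5 within the shared range (exact p = 1). Adjusted over the 3 measures by Benjamini-Hochberg, the exact p were 0.0728, 0.0507 and 0.0507, so none passed. The first principal component took 59.1% of the variance and separated the days, with day 3 libraries between −64.19 and −2.61 and day 7 libraries between 23.5 and 55.7, and the lowest were replicates 2 and 5 of day 3. Replicates 5 and 7 of day 3 and replicate 2 of day 7 stood apart by transcripts of stomach and Brunner gland, and replicates 2 and 3 of day 3 had the most transcripts of pancreatic acinar cells. The running numbers of the libraries, whose meaning is not stated, fall into ranges, and 1 range holds libraries of both days, replicates 6 and 7 of day 3 and replicates 4 and 6 of day 7. The comparison within this range, of 2 against 2 libraries, is called the shared number range below, and its counts stand beside those of a list. Of markers of the labelled tissue, *Vil1* and *Epcam*, which mark intestinal epithelium, were found at 195 and 442 CPM at the median of day 3. *Gata4*, a factor of the proximal SI, was at 59.2 CPM, and *Fabp6*, a gene of the distal SI, at no more than 1.44 CPM in any library. These values do not show that each piece was free of other organs or taken at the same position, and libraries that differed in such transcripts are described below. CPM are counts per 1000000 counts of the library, with the library total first scaled by its TMM factor (trimmed mean of M values), and a gene with at most 3 counts in every library of a day was taken as not detected on that day.

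Of 20646 genes tested with edgeR's quasi-likelihood test, 7442 (36.0%) differed between the days at an adjusted p under 0.05, with 4078 (19.8%) higher and 3364 (16.3%) lower at day 7. The values of the days did not overlap for 3440 genes (16.7%), 2217 of them higher (10.7%) and 1223 lower (5.92%) at day 7. Of the genes that passed, 1439 were at least 2-fold higher and 1574 at least 2-fold lower, whereas 259 were at least 4-fold higher and 100 at least 4-fold lower. The split of the calls rested on the scaling. The median log2 fold change of all genes tested was −0.056 with TMM factors and −0.41 with library totals alone, and with totals alone 1974 genes were higher and 7367 lower. The changes below are on the TMM scale, and groups whose direction or majority turned with totals alone are named where they are described. In the range of library numbers shared by both days, 2933 of 21872 genes passed (13.4%), with 1788 higher (8.17%) and 1145 lower (5.24%) at day 7. Of the genes called with all libraries, 7426 were tested there and 7376 (99.3%) had the same direction. The libraries of this range are among those that gave the calls, so agreement in direction is in part built in. The members of a list that passed in this range had also passed with all libraries, in the same direction, unless stated otherwise.

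The largest rise, of genes whose days did not overlap and whose mean reached 100 counts, was that of *Ada* (ENSMUSG00000017697, chromosome 2, 163726584 to 163750239), which encodes adenosine deaminase, an enzyme of villus enterocytes. Its levels lay between 6.08 and 88.5 CPM at day 3 (median 28.2) and between 139 and 515 CPM at day 7 (median 283), a log2 fold change of 3.31 ± 0.51 SE (adjusted p = 0.00012, edgeR). Of the 15 largest rises, several are genes of enterocytes. *Apoa4* (log2 fold change 3.09), *Apoc2* (3.06), *Apoc3* (3.06) and *Apoa1* (2.62) encode apolipoproteins, *Enpp3* (3.02) encodes an enzyme of the cell surface, *Krt20* (2.69) is a keratin of the villus tip and *Ceacam20* (2.65) a microvillus protein. *Spink1* (2.87), a trypsin inhibitor, *Bst1* (2.83), *Ifit1bl2* (2.75) and *Apol7a* (2.58) were also among them. Also among them, *Gm10680* (3.11) and *Gm44805* (3.06) overlap exons of *Apoa4* and *Apoc2*, and reads of the genes of each pair may be shared. The falls of genes chosen in the same way were smaller and began with *Chrm2* (log2 fold change −1.72 ± 0.22 SE, adjusted p = 3.99e-05, edgeR), the muscarinic receptor of smooth muscle, which fell from a median of 27.7 to 10.3 CPM. Next came the nerve-associated *Scn7a* (−1.64) and *Rims1* (−1.53), the immunoglobulin gene *Ighm* (−1.5), and *Flt1* (−1.5) and *Kdr* (−1.46), which encode the receptors of vascular endothelial growth factor. The chemokine gene *Cxcl13* (−1.49), *Csf1* (−1.46), the growth factor of macrophages, *Trps1* (−1.44), *Plcb4* (−1.42), *Ebf1* (−1.41), *Gm37452* (−1.4), *Podxl* (−1.36) and *Myom1* (−1.36), and *Gucy1b1* (−1.36), a subunit of the nitric oxide receptor, completed the 15.

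**Figure D1:**
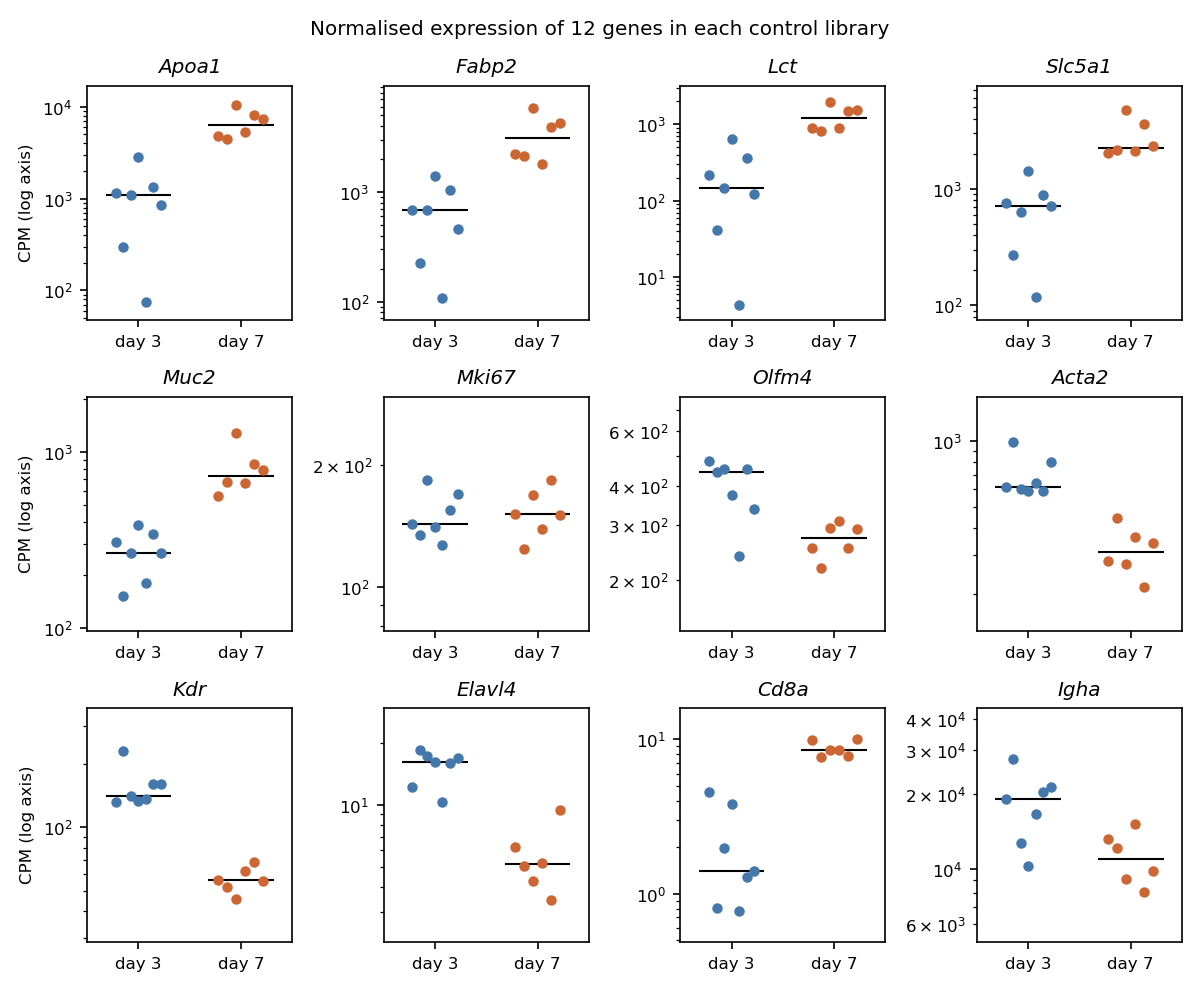
Normalised expression (CPM, log axis) of 12 genes in each control library at day 3 (n = 7) and day 7 (n = 6), with a point for each library and a line at the median of a day. The absorptive genes *Apoa1*, *Fabp2*, *Lct* and *Slc5a1* were higher in every library of day 7 than in any of day 3, *Acta2*, *Kdr* and *Elavl4* were lower, and *Mki67* overlapped between the days.

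Genes of lipid absorption and chylomicron assembly were higher at day 7 almost throughout. Of 33 genes listed, all of which were tested, 30 rose and 1 fell, with a median log2 fold change of 1.88, and in 28 of the 30 the days did not overlap. Among all genes tested 19.8% were higher and 16.3% lower. Within the shared range of library numbers the same counts were found, with a median of 1.62. *Apoa1* (ENSMUSG00000032083, chromosome 9, 46228580 to 46230466), the main protein of high-density lipoprotein, which the intestine also packs into chylomicrons, lay between 75.4 and 2849 CPM at day 3 (median 1106) and between 4467 and 10530.0 CPM at day 7 (median 6342), a log2 fold change of 2.62 ± 0.53 SE (adjusted p = 0.00108, edgeR). The lowest day 7 library was thus above the highest of day 3. *Fabp2* (ENSMUSG00000023057, chromosome 3, 122895072 to 122899506), the fatty acid binding protein of the enterocyte cytosol, lay between 108 and 1387 CPM at day 3 (median 679.7) and between 1781 and 5782 CPM at day 7 (median 3082). The days again did not overlap, although the day 3 mice differed among each other more than 10-fold, with replicates 5 and 2 lowest (108 and 225 CPM) and replicate 4 highest. Its relative *Fabp1* rose by 2.22 on the log2 scale. *Apob*, the structural protein of the chylomicron, lay between 81.6 and 629 CPM at day 3 (median 356) and between 1158 and 1793 CPM at day 7 (median 1611), a log2 fold change of 2.22 ± 0.34 SE (adjusted p = 0.000128, edgeR). *Mttp*, which loads it with lipid and whose exons overlap those of *Trmt10a* on the other strand, rose by 1.79 (adjusted p = 0.000117). Since a bulk piece was read, fewer cells of a type and less RNA per cell cannot be told apart here or in any result below.

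The members of the lipid list followed the route of fat through the cell. For uptake at the membrane, the cholesterol transporter *Npc1l1* (2.27), the fatty acid transport protein gene *Slc27a4* (2.14) and the fatty acid translocase *Cd36* (0.84) were higher. The scavenger receptor gene *Scarb1* had a log2 fold change of 0.27 that did not pass (adjusted p = 0.532, edgeR). *Abcg5* (1.88) and *Abcg8* (1.86), which return plant sterols to the lumen and overlap each other on opposite strands, rose alike. Of the enzymes that activate and re-esterify fatty acids, *Acsl5* (2.09), *Mogat2* (1.9), *Dgat1* (1.66), *Dgat2* (2.57), *Gpat3* (1.82) and *Agpat2* (1.45) and the cholesterol esterifying *Soat2* (1.76) rose. *Acsl3* did not pass (−0.045). *Dgat2* was the farthest of these, between 17.6 and 162 CPM at day 3 (median 40.2) and between 159 and 551 CPM at day 7 (median 299). The assembly and export factors *Tm6sf2* (1.95), *Sar1b* (1.48), *Cideb* (1.98), *Pla2g12b* (1.88), *Lpcat3* (1.03) and *Apobec1* (1.34) also rose, as did *Creb3l3* (1.96), a transcription factor of lipid metabolism. Of the genes of the lipid droplet, *Plin2* (0.62), *Plin3* (1.33) and *Pnpla2* (0.97) rose. *Mgll*, which cleaves monoacylglycerols, was the exception and fell from a median of 115 to 60.2 CPM (log2 fold change −0.98 ± 0.11 SE, adjusted p = 2.04e-05, edgeR). *Apoa4* had the largest rise of the list and lay between 14.4 and 1009 CPM at day 3 (median 223) and between 1096 and 4869 CPM at day 7 (median 2450.0). *Apoc3* lay between 5.66 and 264 CPM at day 3 (median 92.8) and between 502 and 1249 CPM at day 7 (median 827).

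Hydrolases of the brush border were higher at day 7 in every case. All 21 genes of the list were tested and all 21 rose, with a median of 2.22 and a range from 1.56 to 4.44 on the log2 scale. In 13 of them the days did not overlap. Within the shared number range 20 rose, with a median of 1.99. The mean log2 CPM of the list lay between 3.53 and 6.82 at day 3 (median 5.67) and between 7.52 and 8.26 at day 7 (median 7.83), and the lowest libraries were again replicates 5 and 2 of day 3. *Lct*, lactase, lay between 4.37 and 636 CPM at day 3 (median 146) and between 819 and 1975 CPM at day 7 (median 1192), a log2 fold change of 2.54 ± 0.66 SE (adjusted p = 0.0062, edgeR). It was at 4.37 CPM in replicate 5 and 636 CPM in replicate 4 of day 3, so that mice of the same day spanned a wider range than the medians of the days. *Sis*, sucrase-isomaltase, lay between 88.8 and 1001 CPM at day 3 (median 757) and between 1185 and 3108 CPM at day 7 (median 1747), a log2 fold change of 1.6 ± 0.38 SE (adjusted p = 0.00366, edgeR). The disaccharidases *Mgam* (2.23) and *Treh* (2.17) rose too. So did the peptidases *Anpep* (2.06), *Enpep* (1.56), *Dpp4* (2.09), *Mme* (2.18), *Mep1a* (1.91), *Mep1b* (2.22), *Ace* (2.22), *Xpnpep2* (2.55) and *Naaladl1* (3.07). The enteropeptidase gene *Tmprss15* (2.78) that activates trypsin, the phosphatases *Alpi* (1.63) and *Akp3* (2.09), *Ggt1* (2.2), and the lipid and nucleotide hydrolases *Asah2* (2.25), *Enpp3* (3.02) and *Enpp7* (4.44) rose. The value of *Enpp7*, alkaline sphingomyelinase, comes from low levels, with a median of 0.18 CPM at day 3 and 7.3 CPM at day 7, and from replicate 3 of day 7 with 97.6 CPM, and it was 2.68 without replicate 3 of day 7.

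Nutrient transporters moved in the same direction. Of 21 genes tested, 20 rose and 0 fell, with a median of 1.98, against 19 and 1.65 in the shared number range. *Slc5a1*, the sodium-coupled glucose transporter SGLT1, lay between 119 and 1433 CPM at day 3 (median 718) and between 2045 and 4757 CPM at day 7 (median 2244), a log2 fold change of 2.04 ± 0.41 SE (adjusted p = 0.000959, edgeR). *Slc2a5* (2.01), which carries fructose, and *Slc2a2* (2.05), the basolateral exit of sugars, rose to a like extent. Among carriers of amino acids and peptides, *Slc15a1*, the peptide transporter PEPT1, rose from a median of 26.6 to 144 CPM, and *Slc6a19* (2.56), a carrier of neutral amino acids, was higher. Other carriers that rose were *Slc7a15* (2.52), *Slc3a1* (1.98), *Slc7a9* (1.78), *Slc7a7* (1.45), *Slc7a8* (1.49), *Slc43a2* (1.92), *Slc16a10* (1.81), *Slc36a1* (1.77) and *Slc6a20a* (1.72). The vitamin carriers *Slc23a1* for ascorbate (3.07), *Slc46a1* for folate (2.22) and *Slc5a6* (1.05), the sugar carrier *Slc5a9* (1.77) and the nucleoside carriers *Slc28a1* (2.1) and *Slc28a2* (3.02) rose. *Slc1a1*, a glutamate transporter, had a log2 fold change of 0.47 and did not pass (adjusted p = 0.174, edgeR).

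Promoters are shown for the 3 genes of these absorptive lists whose windows hold a motif of the hepatocyte nuclear factors HNF4, which are known to drive enterocyte genes and whose own transcripts are described below. Windows from 250 bases before to 50 after a transcription start (RefSeq, GRCm38.p6) were searched on both strands for the letters CAAAGTCCA. Of 75 genes in the 3 lists, 63 had a window, and 3 of their 80 windows (3.75%) held the motif, against 156 of 32851 windows of all genes (0.475%). The motif lay 19, 71 and 39 bases before the start of *Alpi*, *Treh* and *Slc3a1*. It is read in the direction of the gene in *Alpi* and *Slc3a1* and on the other strand in *Treh*. The 150 bases before each start are given 5′ to 3′ on the strand of the gene, with the motif in capitals, and lie at chr1:87101607-87101756 (minus strand) for *Alpi*, chr9:44673083-44673232 (plus strand) for *Treh* and chr17:85028197-85028346 (plus strand) for *Slc3a1*.
Alpi: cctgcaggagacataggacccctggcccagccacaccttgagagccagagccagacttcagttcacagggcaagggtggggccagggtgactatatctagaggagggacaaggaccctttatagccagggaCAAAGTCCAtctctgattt
Treh: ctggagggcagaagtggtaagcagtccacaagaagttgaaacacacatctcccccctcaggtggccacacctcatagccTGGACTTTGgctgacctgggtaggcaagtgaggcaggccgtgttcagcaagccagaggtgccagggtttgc
Slc3a1: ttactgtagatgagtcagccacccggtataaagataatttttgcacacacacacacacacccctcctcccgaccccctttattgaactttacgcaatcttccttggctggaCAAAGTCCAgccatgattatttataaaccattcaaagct

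All 3 genes rose at day 7. So did 21 of 21 hydrolases and 20 of 21 transporters of their lists, so the rise says nothing about the motif. *Alpi*, intestinal alkaline phosphatase, lay between 265 and 1144 CPM at day 3 (median 746) and between 1042 and 3203 CPM at day 7 (median 2412). *Treh*, trehalase, lay between 2.83 and 70.1 CPM at day 3 (median 30.5) and between 111 and 191 CPM at day 7 (median 127). *Slc3a1*, the partner of the cystine transporter, lay between 1.42 and 19 CPM at day 3 (median 8.28) and between 24.4 and 58.7 CPM at day 7 (median 33.5). A match of letters is a description of the window, and binding was not measured.

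**Figure D2:**
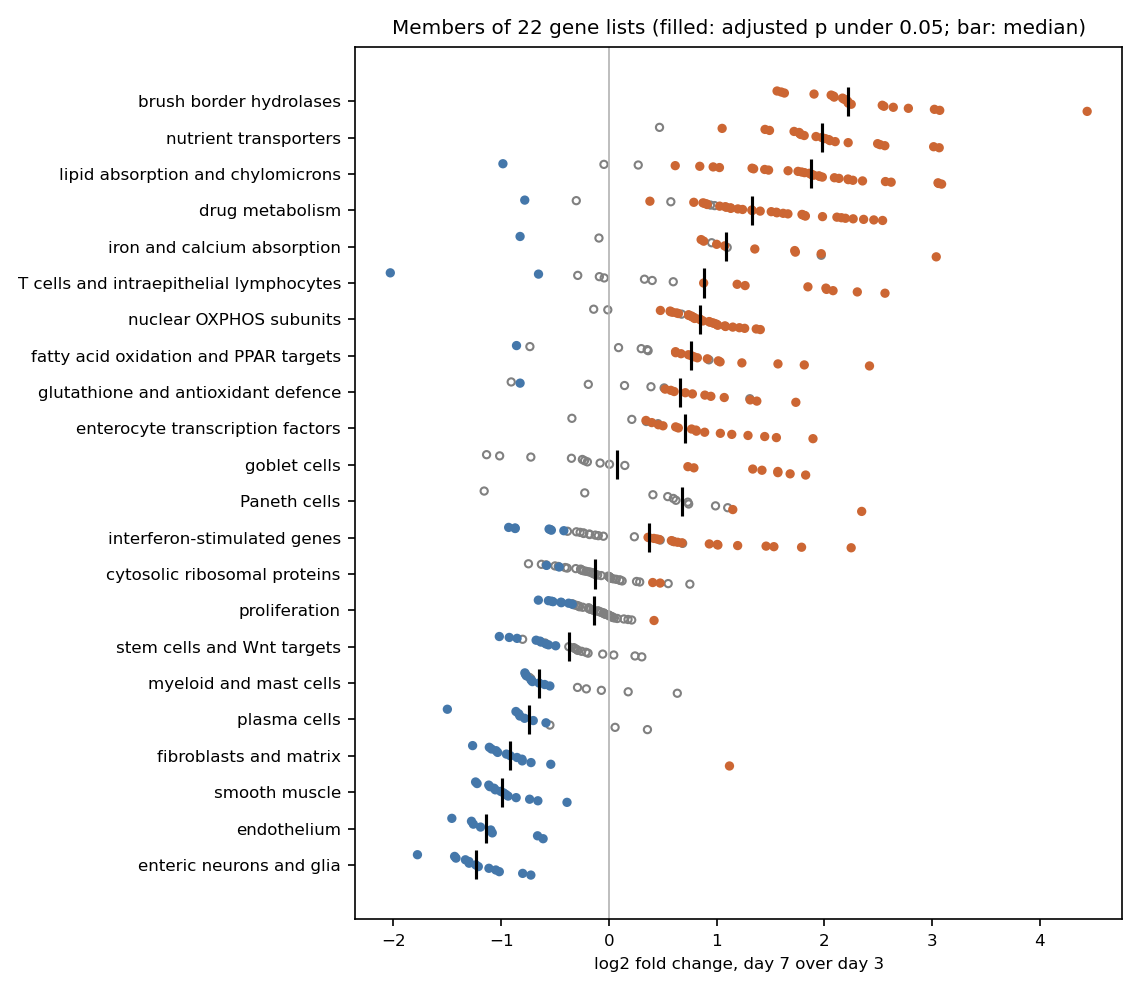
Log2 fold change of day 7 over day 3 for every tested member of 22 gene lists. Filled points passed an adjusted p under 0.05 (edgeR; orange higher, blue lower), open points did not, and black bars mark the median of a list. Absorptive and drug metabolism lists lie to the right of 0 and the lists of muscle, vessels, nerves and fibroblasts to the left. With library totals alone the goblet median falls below 0.

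Genes of iron, calcium and zinc handling were higher in part. Of 14 tested, 9 rose and 1 fell (median 1.09), and 4 rose and 1 fell in the shared number range, where the fall was that of *Tfrc* (−0.65, adjusted p = 0.0368, edgeR). The iron oxidase *Heph* (1.97), the ferritin subunits *Fth1* (1.36) and *Ftl1* (1.08), the iron importer *Slc11a2* (1.0), the zinc transporter *Slc39a4* (1.73), the vitamin D receptor gene *Vdr* (0.88), and the calcium channel gene *Trpv6* (3.04) rose. *Hmox1*, haem oxygenase, fell by 0.82, a call lost without replicates 1, 3, 5 or 6 of day 7 (−0.79 to −0.72). *Trpv6* was carried by replicates 1 and 2 of day 7 (16.5 and 16.3 CPM), while 3 libraries of that day had no count, and its call was lost without replicates 2, 3, 4 or 6 of day 3 (2.81 to 2.89). The calcium binding *S100g* lay between 62.8 and 967 CPM at day 3 (median 321) and between 40.8 and 4501 CPM at day 7 (median 725) and did not pass (log2 fold change 1.97 ± 0.76 SE, adjusted p = 0.0509, edgeR), and neither did the iron exporter *Slc40a1* (1.1), the iron reductase *Cybrd1* (0.95) or the transferrin receptor gene *Tfrc* (−0.092). *S100g* passed without replicate 1 of day 3 or replicates 3 or 6 of day 7 (2.16 to 2.41). 

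These genes differ along the length of the intestine, and the day 7 mice differed among each other in markers of position. Of 8 duodenal genes, 3 rose and 0 fell (*Slc46a1*, *Gata4* and *Trpv6*), and *Pdx1* (0.50), *Onecut2* (0.38) and *Onecut3* (−0.29) did not pass, and 1 rose in the shared number range. *Onecut2* passed without replicate 3 of day 7 (0.54). Of 5 ileal genes tested, 4 rose, *Slc51a* (1.57), *Slc51b* (2.31), *Cubn* (3.02) and *Fabp6*, against 3 in the shared number range. *Fabp6* had at most 3 counts in every day 3 library and reached only 1.44 CPM at day 7, so no fold is given, its call was lost without replicates 2, 3, 4, 5, 6 or 7 of day 3 or replicates 1, 2, 3 or 5 of day 7, and without it the median of the ileal list was 1.94 in place of 2.07. The bile acid genes *Slc10a2* and *Fgf15*, which define the ileum, had too few counts to be tested. The mean log2 CPM of the duodenal list lay between 3.57 and 4.89 at day 3 (median 4.38) and between 3.19 and 6.47 at day 7 (median 4.78). Replicate 3 of day 7 was the lowest of all libraries, with *Pdx1* at 1.07 CPM against at least 9.64 CPM elsewhere, and it had the highest *Cubn*, 175 CPM. Replicates 1 and 2 of day 7 had the highest *Slc40a1* (425 and 245 CPM). Without replicate 3 of day 7, the absorptive lists kept their counts, with 30, 21 and 20 genes higher for lipids, hydrolases and transporters. 

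The transcription factors of enterocytes rose as a group, with a smaller median than the absorptive lists. Of 20 tested, 16 rose and 0 fell, with a median of 0.71, against 8 higher, 1 lower and 0.50 in the shared number range, and 8 higher and 1 lower with library totals alone. The gene that fell in the shared range was *Prdm1* (−0.59, adjusted p = 0.0433). *Hnf4a* (ENSMUSG00000017950, chromosome 2, 163506808 to 163572910) lay between 113 and 214 CPM at day 3 (median 187) and between 250.1 and 351 CPM at day 7 (median 303), a log2 fold change of 0.81 ± 0.15 SE (adjusted p = 0.000448, edgeR), and its paralogue *Hnf4g* rose by 1.29. *Klf4*, a factor of differentiated cells, rose from a median of 61.3 to 232 CPM. *Maf* rose from a median of 469 to 1339.9 CPM. *Cdx2* (1.04), *Gata4* (0.65), *Gata5* (1.14) and *Gata6* (0.89), the xenobiotic receptor *Nr1i2* (1.56), *Isx* (0.81), *Smad4* (0.46) and *Tcf7l2* (0.40) rose, and *Cdx1* (0.46), *Klf5* (0.35) and *Prdm1* (−0.34) did not pass. *Cdx1* passed without replicate 4 of day 3 (0.51), *Klf5* without replicate 1 of day 3 (0.45) and *Prdm1* without replicates 3 or 5 of day 3 (−0.44 to −0.42). For a list of villus tip genes, which was added after the data had been seen, 9 of 10 rose (median 2.22; 8 in the shared number range). *Krt20* lay between 36.2 and 294 CPM at day 3 (median 106) and between 471 and 1118 CPM at day 7 (median 822). *Cdkn1a* (1.81), *Junb* (1.07) and *Nt5e* (1.03) were among those that rose, and *Egfr* (0.14) did not pass. The call of *Nt5e* was lost without replicates 1, 2, 3, 5, 6 or 7 of day 3 or replicates 2 or 3 of day 7 (0.63 to 1.04). Genes of epithelial cells in general, also added later, rose in 9 of 10 cases (5 in the shared number range) with a median of 0.80. *Epcam* (ENSMUSG00000045394, chromosome 17, 87635979 to 87651129) lay between 304 and 516 CPM at day 3 (median 442) and between 789 and 1147 CPM at day 7 (median 834), a log2 fold change of 0.99 ± 0.14 SE (adjusted p = 5.79e-05, edgeR). *Vil1* (2.0) rose most, *Krt8* (1.21), *Cldn7* (1.13), *Cldn3* (0.93), *Krt19* (0.67), *Cdh1* (0.65) and *Lgals4* (0.68) less, and *Krt18* (0.22) did not pass with all libraries. *Krt18* passed without replicate 5 of day 3 (0.33).

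Transcripts of dividing cells differed little. Of 41 proliferation genes, 8 fell and 1 rose, against 16.3% and 19.8% of all genes, and the median was −0.14, near that of all genes. The shared number range had 2 that fell. With library totals alone 25 fell and 0 rose, and 14 fell without replicates 2 and 5 of day 3. With single libraries left out, 13 fell without replicate 5 of day 3 and 5 without replicate 1 of day 3 or replicate 6 of day 7. *Mki67*, the gene of Ki67, lay between 127 and 184 CPM at day 3 (median 143) and between 124 and 184 CPM at day 7 (median 151), a log2 fold change of 0.024 ± 0.12 SE (adjusted p = 0.894, edgeR), and the days overlapped widely. With library totals alone it was lower at day 7 (−0.34). *Top2a* (−0.29), *Pcna* (0.0038), *Ccnb1* (0.0041) and *Cdk1* (−0.10) did not pass, whereas the replication genes *Rrm1* (−0.53), *Mcm2* (−0.52) and *Mcm7* (−0.44), and *Bub1b* (−0.44) and *E2f1* (−0.56) fell, and *Gins2* (0.42) rose. Of 23 genes of stem cells and Wnt signalling, 9 fell and 0 rose (median −0.37), against 3 in the shared number range and 17 with library totals alone. *Olfm4*, a marker of crypt base cells, lay between 239.8 and 481 CPM at day 3 (median 445) and between 219 and 308 CPM at day 7 (median 273), a log2 fold change of −0.56 ± 0.15 SE (adjusted p = 0.0087, edgeR). *Smoc2* (−0.63), *Tnfrsf19* (−1.02), *Nkd1* (−0.85), *Lrig1* (−0.68), *Rgmb* (−0.49) and *Slc12a2* (−0.64) fell. *Lgr5*, the stem cell receptor, lay between 5.92 and 19.5 CPM at day 3 (median 14.1) and between 10.8 and 15.5 CPM at day 7 (median 11.3) and did not pass (log2 fold change −0.21 ± 0.20 SE, adjusted p = 0.452, edgeR), and neither did *Ascl2* (−0.37) or *Axin2* (−0.31). *Lgr5* passed without replicate 5 of day 3 (−0.40), *Ascl2* without replicate 7 of day 3 (−0.44), *Axin2* without replicate 5 of day 3 (−0.42) and *Top2a* without replicate 5 of day 3 (−0.42). The days of *Olfm4* overlapped, since replicate 5 of day 3 (239.8 CPM) was among the low ones. Of 15 tested genes of the fetal-like state that the epithelium takes on in regeneration, 3 rose and 3 fell, shares near the 19.8% and 16.3% of all genes, and 1 fell without replicate 1 or 6 of day 3 or replicate 1, 5 or 6 of day 7. *Areg*, an epidermal growth factor receptor ligand, rose from a median of 4.5 to 17.9 CPM (log2 fold change 2.16 ± 0.27 SE, adjusted p = 3.78e-05, edgeR), with *Hbegf* (1.57) and *Il33* (1.37). *Ly6a* (−0.96), which encodes Sca-1, *Ccn1* (−1.29) and *Ccn2* (−1.04) fell. The call of *Ccn1* was lost without replicates 1, 2, 4 or 6 of day 3 or replicates 1, 2, 5 or 6 of day 7 (−1.3 to −1.12) and that of *Ccn2* lost without replicates 1 or 6 of day 3 or replicates 1, 5 or 6 of day 7 (−1.09 to −0.80). In the shared number range 3 rose and 2 fell, *Clu* among them. *Clu* (−1.31) did not pass with all libraries, and it had its highest values in the libraries with stomach transcripts. It was −0.070 without replicate 5 of day 3, −3.61 without replicate 2 of day 7, where it passed (adjusted p = 0.00204, edgeR), and −2.13 in the shared number range (adjusted p = 0.000582).

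Goblet cell genes split into a group that rose and a group that did not pass. Of 18 tested, 8 rose and 0 fell, with a median of 0.077 that turned to −0.21 with library totals alone (7 higher, 1 lower). The median rested on single libraries, from −0.39 without replicate 2 of day 7 to 1.02 without replicate 5 of day 3. In the shared number range 7 rose and 1 fell, which had not passed with all libraries. *Muc2*, the mucin of the intestine, lay between 153 and 386 CPM at day 3 (median 268) and between 565 and 1289 CPM at day 7 (median 736) without overlap (log2 fold change 1.57 ± 0.22 SE, adjusted p = 7.49e-05, edgeR). *Tff3* (1.83), *Clca1* (1.68), *Fcgbp* (1.42), *Zg16* (1.34), *Spink4* (1.57), *Atoh1* (0.73) and *Sytl2* (0.79) rose. Members that gastric and Brunner gland cells also express did not pass, among them *Agr2* (0.15), *Gcnt3* (0.0061) and *Spdef* (−0.081), which were highest in replicate 5 of day 3 and replicate 2 of day 7. *Agr2* passed without replicate 5 of day 3 (1.25) and *Gcnt3* without replicate 5 of day 3 (1.27). Without the 3 libraries with the most stomach and Brunner gland transcripts, 12 of 19 tested goblet genes rose and 0 fell, and *Spdef* was 0.71 higher at day 7. Of 12 tested Paneth cell genes, 2 rose, *Mptx2* (2.35) and *Defa3* (1.15), a share near the 19.8% of all genes, and neither passed without replicate 3 of day 7 (1.49 and 0.58) or in the shared number range. The call of *Defa3* was also lost without replicates 2, 3, 5 or 7 of day 3 or replicate 3 of day 7 (0.58 to 1.12). The count rested on single libraries, with 7 higher without replicate 2 of day 7, 5 without replicate 1 of day 3, 4 without replicate 6 of day 7 and 0 without replicate 3 of day 7. *Lyz1*, lysozyme, lay between 412 and 1213 CPM at day 3 (median 605) and between 522 and 2342 CPM at day 7 (median 1012), a log2 fold change of 0.74 ± 0.31 SE (adjusted p = 0.0761, edgeR) and did not pass. *Lyz1* passed without replicate 1 of day 3 or replicate 2 of day 7 (0.89 to 0.93). The α-defensin genes are near-identical copies whose reads may be shared.

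Of 23 tested enteroendocrine genes 5 rose and 5 fell, shares near the 19.8% and 16.3% of all genes, with a median of 0.12 that was −0.23 with library totals alone. Without replicate 5 of day 7, 3 fell, and in the shared number range 2 rose and 2 fell. The hormone genes *Sct* for secretin (1.58), *Gip* (0.99) and *Cck* (0.59) rose, as did *Neurod1* (0.65) and *Nts* for neurotensin (3.07). *Sct* lay between 7.72 and 19.2 CPM at day 3 (median 12) and between 32.1 and 53 CPM at day 7 (median 35.6). The progenitor factor *Neurog3* (−1.39), and *Cpe* (−0.68) and *Pcsk1n* (−0.95), which neurons also express, fell. *Chga*, chromogranin A, lay between 91.7 and 148 CPM at day 3 (median 116) and between 95 and 142 CPM at day 7 (median 128) and did not pass (0.12). *Nts* was at 16 CPM in replicate 3 of day 7 and at most 2.28 CPM elsewhere, and it did not pass without that library (1.08). In tuft cells, 3 of 15 tested genes rose, *Ltc4s* (1.1), *Alox5* (0.92) and *Sh2d6* (0.78), *Ptgs1* (−0.82) fell, and *Dclk1* (−0.27), *Trpm5* (0.46) and *Pou2f3* (0.22) did not pass, and with library totals alone 1 rose and 3 fell. The share that rose was near the 19.8% of all genes, and in the shared number range 0 rose and 1 fell. *Trpm5* passed without replicates 2 or 3 of day 7 (0.54 to 0.55). The call of *Sh2d6* was lost without replicates 2, 5, 6 or 7 of day 3 or replicates 2, 5 or 6 of day 7 (0.59 to 0.77).

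**Figure D3:**
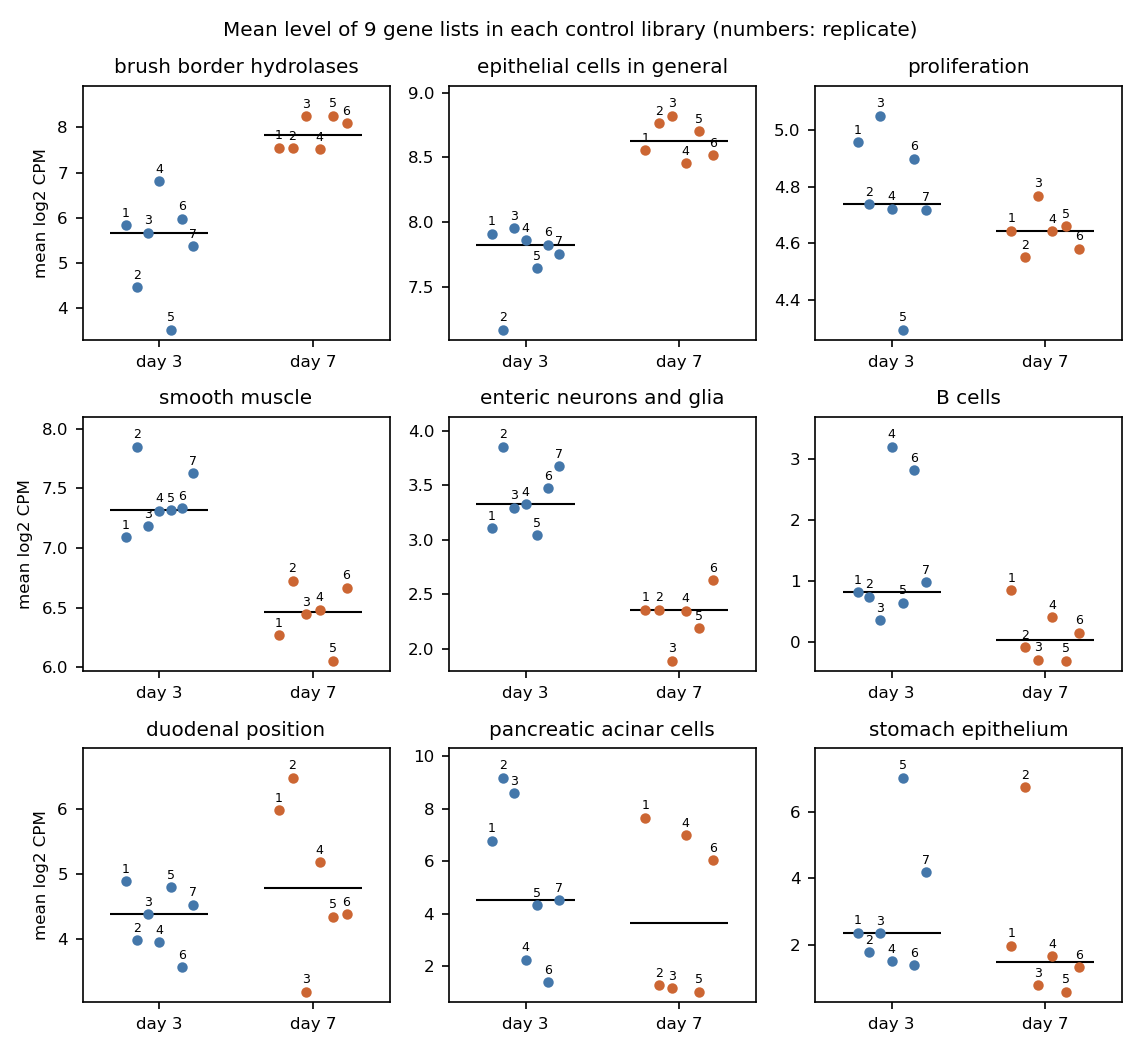
Mean log2 CPM of the tested members of 9 gene lists in each control library, with replicate numbers beside the points and a line at the median of a day. Brush border and general epithelial levels lie above the day 3 range at day 7 and those of smooth muscle and of neurons and glia below it. B cell and stomach levels are high in a few libraries only. Pancreatic levels vary widely within each day, and the proliferation levels overlap.

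Genes of the layers beneath the epithelium were lower at day 7 relative to the scaled library totals. Absolute amounts were not measured. All 14 smooth muscle genes fell, with a median of −0.99, and 13 fell with a median of −1.02 in the shared number range. The mean log2 CPM of the list lay between 7.09 and 7.85 at day 3 (median 7.32) and between 6.05 and 6.73 at day 7 (median 6.46) and the days did not overlap. *Acta2* (ENSMUSG00000035783, chromosome 19, 34241090 to 34255590), smooth muscle actin, lay between 588 and 987 CPM at day 3 (median 616) and between 216 and 445 CPM at day 7 (median 311), a log2 fold change of −1.1 ± 0.18 SE (adjusted p = 0.000162, edgeR). *Myh11*, the myosin of smooth muscle, lay between 490.3 and 930.4 CPM at day 3 (median 688) and between 296 and 393 CPM at day 7 (median 353), a log2 fold change of −1.05 ± 0.15 SE (adjusted p = 7.1e-05). Of the others, *Pgm5* (−1.24), *Synm* (−1.22), *Synpo2* (−1.12), *Myl9* (−1.07), *Smtn* (−1.0), *Tagln* (−0.98), *Tpm2* (−0.96), *Lmod1* (−0.94), *Cnn1* (−0.86), *Actg2* (−0.74) and *Des* (−0.66) fell, and the fall of *Mylk* (−0.39) was the smallest, with a call lost without replicates 2, 6 or 7 of day 3 or replicates 1, 3, 4 or 5 of day 7 (−0.39 to −0.34). All 13 genes of enteric neurons and glia fell (median −1.24, or −1.21 with *Gfap* at its bound, and 8 in the shared number range). *Elavl4*, an RNA binding protein of neurons, lay between 10.3 and 18.4 CPM at day 3 (median 16.1) and between 3.43 and 9.45 CPM at day 7 (median 5.13) without overlap (log2 fold change −1.43 ± 0.21 SE, adjusted p = 9.2e-05, edgeR). *Uchl1* (−1.42), the transmitter genes *Vip* (−1.3) and *Nos1* (−1.3), and the glial factor gene *Sox10* (−1.33) fell alike, as did *Ret* (−1.11), *Tubb3* (−1.02) and *Gap43* (−1.21). *Gfap* had at most 3 counts in every day 7 library, so that its mean was at least 1.43-fold lower than that of day 3.

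The endothelium list fell in all 8 genes (median −1.14; 6 in the shared number range). *Kdr* (ENSMUSG00000062960, chromosome 5, 75932827 to 75978458), the receptor for vascular endothelial growth factor, lay between 131 and 229 CPM at day 3 (median 141) and between 45.5 and 68.5 CPM at day 7 (median 56) without overlap (log2 fold change −1.46 ± 0.14 SE, adjusted p = 1.54e-05, edgeR). *Pecam1* (−1.19), *Cdh5* (−1.1), *Tie1* (−1.28), *Vwf* (−1.26) and *Cldn5* (−1.08) followed. The lymphatic genes *Lyve1* (−0.66) and *Prox1* (−0.61) fell less, and the call of *Prox1* was lost without replicates 2 or 6 of day 3 or replicates 1 or 2 of day 7 (−0.54 to −0.50). Of 13 genes of fibroblasts and matrix, 12 fell (median −0.91; 7 in the shared number range), among them *Col1a1* (−0.54), *Col1a2* (−0.85), *Col3a1* (−0.72), *Col4a1* (−1.09) and *Col6a1* (−0.80), which encode collagens, and *Pdgfra* (−1.03), *Pdgfrb* (−1.27), *Dcn* (−0.91), *Lum* (−1.05) and *Dpt* (−0.95). *Dcn*, decorin, fell from a median of 359 to 199 CPM. *Fbln1* (1.12) rose, between 27.7 and 44.5 CPM at day 3 (median 33.5) and between 49 and 99.8 CPM at day 7 (median 73.5). The haemoglobin genes *Hbb-bs* (−1.01) and *Hbb-bt* (−0.84) and *Alas2* (−0.80), which mark red blood cells, fell, 3 of 3 tested (2 in the shared number range), with the call of *Alas2* lost without replicates 3, 4, 6 or 7 of day 3 or replicates 1, 3, 4 or 6 of day 7 (−0.85 to −0.71). Of 4 adipocyte genes tested, *Fabp4* (−1.25), *Cfd* (−3.3) and *Adipoq* (−2.56) fell and *Cidec* (2.36), which enterocytes express too, rose, and in the shared number range 2 fell and 1 rose. *Cfd* and *Adipoq* were highest in replicate 4 of day 3 (18.2 and 9.05 CPM), and the call of *Adipoq* was lost without replicates 4, 6 or 7 of day 3 or replicates 1, 2, 3, 4 or 5 of day 7 (−2.68 to −1.68). Of 5 mesothelial genes, *Msln*, *Upk3b*, *Lrrn4*, *Upk1b* and *Wt1*, 0 passed in the edgeR test, with 0 at an unadjusted p under 0.05, and the median of 0.18 turned to −0.18 with library totals alone. The summed level of these 5 genes was 11.3 to 25.7 CPM at day 3 and 10.3 to 29.5 CPM at day 7, and the days overlapped.

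Lymphocyte genes moved in opposite directions. Of 17 tested genes of T cells and intraepithelial lymphocytes, 9 rose and 2 fell (median 0.88), and 4 rose and 0 fell in the shared number range. *Cd8a* (ENSMUSG00000053977, chromosome 6, 71373427 to 71379173), the coreceptor of cytotoxic and most intraepithelial T cells, lay between 0.772 and 4.59 CPM at day 3 (median 1.41) and between 7.68 and 9.98 CPM at day 7 (median 8.55) without overlap (log2 fold change 2.02 ± 0.33 SE, adjusted p = 0.00021, edgeR). *Gzma*, granzyme A, lay between 2.83 and 34 CPM at day 3 (median 13.5) and between 62.7 and 143 CPM at day 7 (median 94.7), a log2 fold change of 2.56 ± 0.42 SE (adjusted p = 0.000191). The chemokine gene *Ccl5* (2.31), *Gzmb* (1.85), *Nkg7* (2.08), *Cd7* (2.02), *Cd160* (1.19), *Cd3g* (1.27) and *Cd3e* (0.88) rose as well. *Cd4* (−0.65), the coreceptor of helper T cells, and *Cd2* (−2.03) fell, and *Itgae* (−0.043), the integrin that holds lymphocytes in the epithelium, *Lck* (0.33) and *Ptprc* (−0.29) did not pass. *Ptprc* passed without replicate 5 of day 3 (−0.39).

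B cell genes were high in 2 mice of day 3 only. Of 9 tested, 7 fell and 0 rose, with a median of −2.12. The median was −1.83 with *Fcer2a* at its bound, a mean at least 2.07-fold lower, and *Cd79a*, not detected at day 7, left out. Without these 2 mice 1 fell, and 5 fell in the shared number range, which holds replicate 6. *Ms4a1*, which encodes CD20, was at 23 CPM in replicate 4 and 18.2 CPM in replicate 6 of day 3, at most 2.11 CPM in the other day 3 libraries and at most 0.758 CPM at day 7 (log2 fold change −4.47 ± 1.22 SE, adjusted p = 0.00889, edgeR). *Cd79b* (−1.46), *Cr2* (−2.12) and *Pax5* (−3.2) fell in the pooled test. The call of *Fcer2a* was lost without replicates 4 or 6 of day 3 or replicates 3, 4 or 5 of day 7. With either of these mice or any of replicates 2, 3, 5 and 6 of day 7 left out, 4 B cell genes fell. The call of *Pax5* was lost without replicates 4 or 6 of day 3 or replicates 2, 3, 4, 5 or 6 of day 7 (−3.17 to −2.24), and *Pax5* was 0.15 higher at day 7 without these mice. Plasma cell genes were lower, 7 of 10, with a median of −0.74, but 4 in the shared number range and 1 without replicates 2 and 3 of day 7. *Igha*, the heavy chain of immunoglobulin A, lay between 10212 and 27669 CPM at day 3 (median 19128) and between 8085 and 15188 CPM at day 7 (median 10973) with overlap (log2 fold change −0.70 ± 0.22 SE, adjusted p = 0.0199, edgeR). *Jchain* (−0.83), *Igkc* (−0.78), *Ighm* (−1.5) and *Derl3* (−0.86) fell. The fall of *Ighm* was −0.97 without replicate 4 of day 3. *Sdc1* (0.058), which epithelial cells express too, and *Tnfrsf17* (−0.55) did not pass. Immunoglobulin constant genes are similar to each other, and reads may be shared between them. Of 15 tested genes of myeloid and mast cells, 8 fell and 0 rose (median −0.65; 3 in the shared number range). The complement genes of macrophages *C1qa* (−0.72), *C1qb* (−0.65) and *C1qc* (−0.77), and *Itgax* (−0.78), *Itgam* (−0.55), *Cx3cr1* (−0.71) and *Lyz2* (−0.77) fell, and *Csf1r* (−0.29) and *Cd68* (−0.21) did not pass. *Csf1r* passed without replicate 5 of day 3 or replicate 4 of day 7 (−0.38 to −0.35). *C1qa* lay between 161 and 315 CPM at day 3 (median 248) and between 132 and 175 CPM at day 7 (median 147).

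**Figure D4:**
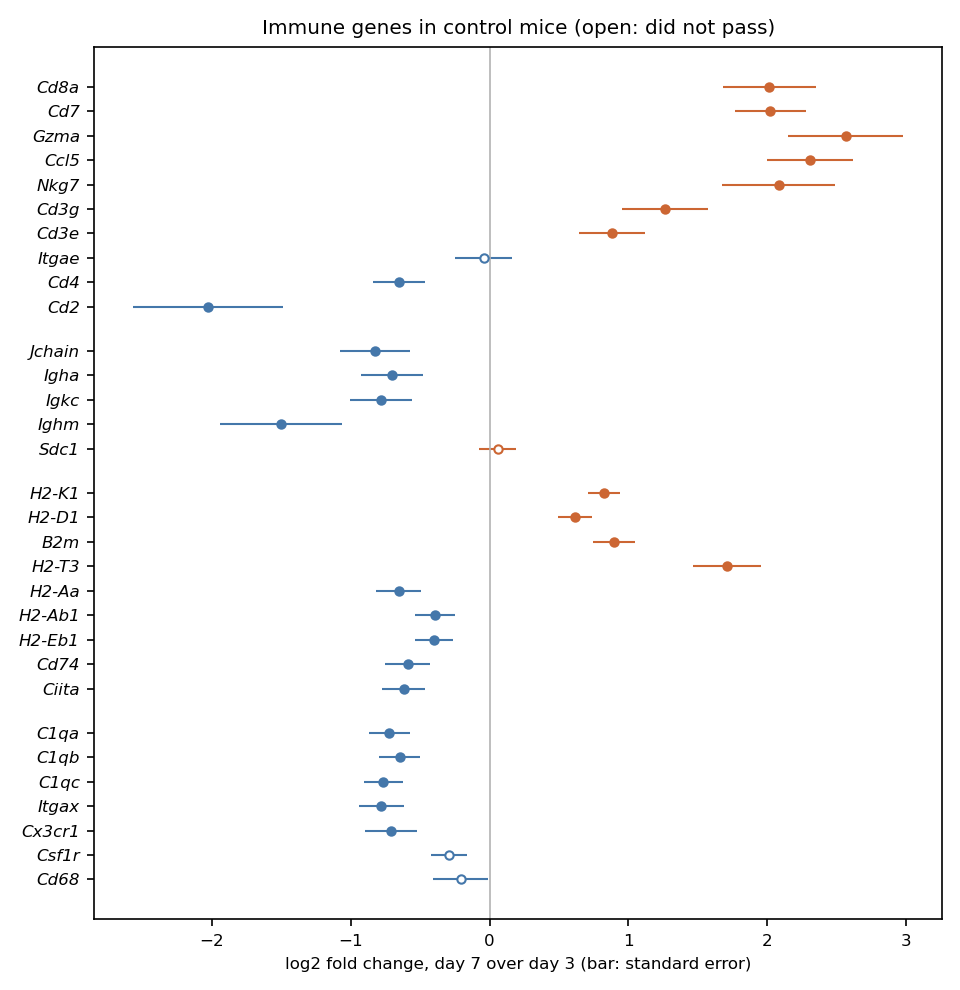
Log2 fold change of day 7 over day 3 with its standard error for immune genes, in groups of T cells, plasma cells, antigen presentation and macrophages from top to bottom (n = 7 and 6 libraries). Filled points passed an adjusted p under 0.05 (edgeR). Genes of cytotoxic T cells and of class I antigen presentation lie above 0, and *Cd4*, immunoglobulin, class II and complement genes below.

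Antigen presentation split by class. Of 15 genes, 6 rose and 6 fell, with a median of 0.10 that was −0.27 with library totals alone (5 higher, 6 lower), and 5 rose and 5 fell in the shared number range. The genes that rose belong to class I, which every nucleated cell presents. *H2-K1* lay between 716 and 1016 CPM at day 3 (median 847) and between 1378 and 1721 CPM at day 7 (median 1519), a log2 fold change of 0.82 ± 0.12 SE (adjusted p = 6.67e-05, edgeR). *H2-D1* (0.62), *B2m* (0.90) and the non-classical *H2-T3* (1.71), *H2-Q1* (2.21) and *H2-Q2* (2.01) rose. The genes that fell belong to class II, which antigen presenting cells and some epithelial cells carry. *H2-Aa* lay between 397 and 879 CPM at day 3 (median 522) and between 304 and 412 CPM at day 7 (median 387), a log2 fold change of −0.65 ± 0.16 SE (adjusted p = 0.00472, edgeR). *H2-Ab1* (−0.40), *H2-Eb1* (−0.40), *H2-DMb1* (−0.69), the invariant chain *Cd74* (−0.59) and the class II regulator *Ciita* (−0.62) fell. The call of *H2-Ab1* was lost without replicates 1, 2, 6 or 7 of day 3 or replicates 1, 3, 5 or 6 of day 7 (−0.42 to −0.34). The call of *H2-Eb1* was lost without replicates 1, 2, 6 or 7 of day 3 or replicates 3, 4, 5 or 6 of day 7 (−0.40 to −0.32). Genes of the H2 family are similar in sequence, so their reads may be shared.

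Of 38 interferon-stimulated genes, 16 rose and 6 fell (median 0.37), against 19.8% and 16.3% of all genes. In the shared number range 8 rose and 2 fell, against 8.17% and 5.24% of all genes. With library totals alone 8 rose and 13 fell, where 1974 of all 20646 genes rose and 7367 fell. In each case the share that fell was near that of all genes. *Ifit1* (1.79), *Isg15* (1.53), the regulator *Irf7* (1.46), the RNA sensor *Ifih1* (1.01), *Oasl2* (1.01) and the immunoproteasome subunits *Psmb8* (1.2) and *Psmb10* (0.93) rose. *Ifi27l2b* rose most, between 35.5 and 190.1 CPM at day 3 (median 110.3) and between 285 and 752 CPM at day 7 (median 469.6), a log2 fold change of 2.25 ± 0.34 SE (adjusted p = 0.000109, edgeR). The guanylate binding proteins *Gbp2* (−0.87), *Gbp4* (−0.87) and *Gbp7* (−0.42), *Iigp1* (−0.93) and *Ifitm3* (−0.53) fell, and *Cxcl10* (−0.18) did not pass. Of 21 tested genes of the response to microbes, 8 rose and 0 fell (median 0.44, or 0.83 without 3 genes that were not detected at day 7, and 7 rose and 1 fell in the shared number range, the last of which had not passed with all libraries). The antimicrobial lectins *Reg3b* (log2 fold change 2.58 ± 0.59 SE, adjusted p = 0.0026, edgeR) and *Reg3g* (2.1) and their relative *Reg3a* (1.83) rose, and *Reg3b* lay between 48.4 and 317 CPM at day 3 (median 198) and between 122 and 3149.9 CPM at day 7 (median 639). *Pigr*, which carries immunoglobulin A across the epithelium, lay between 1184 and 2136 CPM at day 3 (median 1992) and between 3378 and 5414 CPM at day 7 (median 4759), a log2 fold change of 1.33 ± 0.16 SE (adjusted p = 3.13e-05). *Il18* (1.42), *Nfkbiz* (0.92) and the interleukin 22 receptor gene *Il22ra1* (1.63) rose. The 3 genes not detected at day 7 were the neutrophil genes *S100a8* and *S100a9* and the chemokine gene *Cxcl2*, for which a difference was not detectable at this depth.

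Nuclear genes of oxidative phosphorylation (OXPHOS) rose together. Of 34 tested, 31 rose and 0 fell, with a median of 0.85, and 21 rose and 0 fell in the shared number range. *Sdhb*, a subunit of complex II, lay between 92.1 and 153 CPM at day 3 (median 143) and between 221 and 332 CPM at day 7 (median 292), a log2 fold change of 1.15 ± 0.15 SE (adjusted p = 4.02e-05, edgeR). Subunits of complex I (*Ndufa5*, 1.21; *Ndufv1*, 0.86), complex III (*Uqcrfs1*, 1.37), complex IV (*Cox6c*, 1.26) and ATP synthase (*Atp5d*, 1.0) rose alike, and *Ndufs3* (−0.14) and *Cox7c* (−0.0097) did not pass. The subunits encoded by mitochondrial DNA (mtDNA) had a smaller median. Of 7 tested, 5 rose and 0 fell (median 0.44), 1 rose in the shared number range and 0 with library totals alone. *mt-Co1* lay between 1407 and 1972 CPM at day 3 (median 1810.4) and between 2052 and 2797 CPM at day 7 (median 2409.6), a log2 fold change of 0.46 ± 0.12 SE (adjusted p = 0.00646, edgeR). *mt-Cytb* (0.44), *mt-Nd5* (0.43), *mt-Nd6* (0.75) and *mt-Nd4* (0.46) rose, and *mt-Nd1* (0.19) and *mt-Nd2* (0.076) did not pass. The call of *mt-Nd4* was lost without replicates 1, 2, 3, 4 or 7 of day 3 or replicates 1, 3, 4, 5 or 6 of day 7 (0.39 to 0.48), and *mt-Nd5* and *mt-Nd6* overlap on opposite strands.

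Genes of fatty acid oxidation and targets of the receptor PPARα rose in 14 of 21 cases and fell in 1 (median 0.77; 8 and 2 in the shared number range, 1 of the 2 not passing with all libraries). The coactivator gene *Ppargc1a* lay between 37.8 and 78 CPM at day 3 (median 59.5) and between 118 and 199.6 CPM at day 7 (median 171), a log2 fold change of 1.57 ± 0.17 SE (adjusted p = 2.01e-05, edgeR). *Vnn1* (2.42), *Acadvl* (0.82) and *Pex11a* (0.91) rose. *Acot1* (−0.86) fell with a call lost without replicates 1, 6 or 7 of day 3 or replicates 1, 2, 3 or 5 of day 7 (−0.91 to −0.67), and *Cpt1a* (0.09) and *Pdk4* (0.93) did not pass. *Pdk4* passed without replicate 7 of day 3 or replicate 3 of day 7 (1.05 to 1.32). Of 30 genes of sterol and fatty acid synthesis, 11 rose and 1 fell (median 0.38), but 4 rose and 6 fell with library totals alone and 2 rose and 2 fell in the shared number range, 1 of which had not passed with all libraries. *Msmo1* (0.97), *Sc5d* (0.89), *Elovl6* (0.87) and *Stard4* (0.78) rose. *Scd1*, a desaturase of fatty acids, fell from a median of 27.3 to 7.49 CPM (log2 fold change −1.8 ± 0.45 SE, adjusted p = 0.00489, edgeR), and *Fasn* (−0.15) did not pass.

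Genes of drug metabolism were mostly higher at day 7. Of 38 tested genes, 33 rose and 1 fell, with a median of 1.33, and 28 rose and 0 fell in the shared number range. *Cyp3a11*, a cytochrome P450 with many drug substrates, lay between 4.63 and 209 CPM at day 3 (median 53.8) and between 166 and 517 CPM at day 7 (median 357), a log2 fold change of 2.27 ± 0.55 SE (adjusted p = 0.00392, edgeR). *Cyp3a13* (2.46), *Cyp2b10* (2.37), *Cyp2c29* (2.54) and *Cyp2d26* (2.16) rose similarly. Their electron donor *Por* (1.24), the sulfotransferases *Sult1b1* (1.82) and *Sult2b1* (2.2), and the efflux pumps *Abcb1a* (1.79), *Abcc2* (1.83) and *Abcg2* (0.91) rose. *Ahrr* (−0.78), the repressor of the aryl hydrocarbon receptor, fell with a call lost without replicates 1, 2, 4, 6 or 7 of day 3 or replicates 1, 2, 5 or 6 of day 7 (−0.80 to −0.62), and *Ahr* (−0.30) did not pass. *Ahr* passed without replicate 5 of day 3 (−0.45). P450 genes of a subfamily are similar in sequence, and their reads may be shared. Of 18 tested genes of glutathione and antioxidant defence, 11 rose and 1 fell (median 0.66; 7 and 1 in the shared number range), with *Srxn1* (1.74), *Cat* (1.37), *Gclm* (1.31), *Sod1* (1.07), *Prdx1* (0.78) and *G6pdx* (0.95) among those that rose, *Hmox1* as the gene that fell and *Gpx2* (−0.19) among those that did not pass. The gene that fell in the shared number range was *Gpx2* (−0.74, adjusted p = 0.0136, edgeR) and *Hmox1* did not pass (adjusted p = 0.31). Genes of cytosolic ribosomal proteins differed little in the reads counted, 2 higher and 2 lower of 39 tested (median −0.13). However, 17 fell with library totals alone and 0 passed in the shared number range. Of these genes 5 fell without replicate 5 of day 3, and 5 rose without replicate 1 of day 3. *Rps6* and *Rpl24* were not detected on either day and *Rpl35* not at day 7, and without these 3 the median was again −0.13. Averaged over its members, the list reached 4.035 to 4.307 on the log2 CPM scale at day 3 and 3.927 to 4.16 at day 7. Whether reads of ribosomal protein genes were lost in counting was not tested, so stable levels of their transcripts are not shown. *Rps14* (0.41) and *Rps15* (0.48) rose, and *Rpl5* (−0.46) and *Rps19* (−0.58) fell, with calls lost without replicate 1 of day 3 or replicates 4 or 5 of day 7 (−0.43 to −0.37) for *Rpl5* and lost without replicate 6 of day 3 or replicates 1, 3 or 6 of day 7 (−0.55 to −0.51) for *Rps19*. 

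Stress responses showed no common direction. Of 16 immediate early genes, 7 rose and 4 fell (median 0.57; 6 and 3 in the shared number range). *Fos* lay between 4.8 and 19.5 CPM at day 3 (median 7.99) and between 40.9 and 99.3 CPM at day 7 (median 50.1), a log2 fold change of 2.54 ± 0.28 SE (adjusted p = 2.12e-05, edgeR). *Junb* (1.07), *Jun* (0.83), *Klf6* (1.12), *Zfp36* (0.96), *Sgk1* (2.15) and *Atf3* (1.51) rose. *Egr1* (−1.02), *Klf2* (−1.3) and *Dusp1* (−0.68) fell. *Atf3* was 0.90 without replicate 3 of day 7. Of 11 heat shock genes, *Dnajb1* (0.93) and *Hspe1* (0.50) rose and *Hspb1* (−1.0) fell, *Hspa1a* (0.022) did not pass, and the median of 0.26 was −0.095 with library totals alone, and 1 rose and another gene fell in the shared number range. In the unfolded protein response of the endoplasmic reticulum, 8 of 17 genes rose and 0 fell (median 0.33), against 2 with the replicate number as a block, 1 in the shared number range and, with library totals alone, 1 higher and 3 lower. *Hspa5*, the chaperone BiP, lay between 855 and 1182 CPM at day 3 (median 1073) and between 1117 and 2239 CPM at day 7 (median 1384), a log2 fold change of 0.52 ± 0.15 SE (adjusted p = 0.0139, edgeR), with *Dnajb9* (0.86), *Herpud1* (0.44), *Calr* (0.46) and *Dnajb11* (0.49). Of 20 targets of the transcription factor ATF4, *Slc3a2* (1.31), *Trib3* (1.66) and *Ddit3* (0.45) rose and *Slc7a5* (−1.05) fell, with a median of −0.11, and with library totals alone 2 rose and 6 fell. In the shared number range 2 rose and 2 fell, 1 of which had not passed with all libraries. The shares of heat shock genes and of ATF4 targets that rose or fell were near or under those of all genes (19.8% and 16.3%). *Asns* (−0.24) and *Atf4* itself (0.22) did not pass. *Ddit3*, whose call was lost without replicates 1, 2, 6 or 7 of day 3 or replicates 1, 5 or 6 of day 7 (0.38 to 0.45), overlaps exons of *Gm4189* and *Mars*. Of 13 p53 targets, *Cdkn1a* (1.81), *Sesn1* (1.09), *Mdm2* (0.71) and *Tnfrsf10b* (0.92) rose and *Phlda3* (−1.25), *Trp53inp1* (−0.79) and *Plk2* (−0.97) fell, with a median of 0.0065 that was −0.36 with library totals alone. *Bax* (0.23) did not pass, and in the shared number range 2 rose and 2 fell. Among all genes 19.8% rose and 16.3% fell, and 8.17% and 5.24% did so in that range.

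Clock genes were measured because the transcripts of the intestine oscillate over the day, and the time of day at which the mice were killed is not given in the sources used here. Of 19 genes, 6 rose and 2 fell (median 0.29), 2 rose and 1 fell in the shared number range, and with library totals alone 2 rose and 3 fell. Of all genes tested, 19.8% were higher and 16.3% lower with all libraries. In the shared number range 8.17% were higher and 5.24% lower, near the shares of clock genes there. *Dbp*, *Nr1d1*, *Per2*, *Clock* and *Bhlhe40*, which rose with all libraries, did not pass in the shared number range (adjusted p = 0.155, 0.216, 0.741, 0.229 and 0.544, edgeR), whereas *Per3* passed there (0.70, adjusted p = 0.0364). *Dbp*, an output gene of the clock with a wide daily swing, lay between 15.5 and 29.4 CPM at day 3 (median 23.7) and between 25.4 and 62.4 CPM at day 7 (median 38.1), a log2 fold change of 0.86 ± 0.21 SE (adjusted p = 0.00358, edgeR). *Nr1d1*, the repressor REV-ERBα, lay between 28.6 and 57.1 CPM at day 3 (median 39.8) and between 47.9 and 94.4 CPM at day 7 (median 58.7), a log2 fold change of 0.67 ± 0.17 SE (adjusted p = 0.00511). *Per2* (0.52), *Clock* (0.28) and *Bhlhe40* (0.43) rose, and *Rora* (−1.02) and *Bhlhe41* (−0.90) fell. The call of *Per2* was lost without replicates 1, 2 or 5 of day 3 or replicates 3 or 5 of day 7 (0.37 to 0.51). That of *Bhlhe41* was lost without replicate 6 of day 3 or replicates 1, 5 or 6 of day 7 (−0.86 to −0.77), that of *Clock* lost without replicates 2, 4, 5 or 6 of day 3 or replicates 1, 4 or 6 of day 7 (0.21 to 0.28), and that of *Bhlhe40* lost without replicates 1, 3, 5 or 7 of day 3 or replicate 3 of day 7 (0.29 to 0.40). Without replicate 5 of day 3, 3 clock genes rose. *Clock* had the opposite sign with library totals alone (−0.075). *Arntl* (0.12), the partner of CLOCK, the repressors *Per1* (0.16), *Per3* (0.19), *Cry1* (0.18) and *Cry2* (−0.02), *Npas2* (0.87), *Nr1d2* (0.29), *Nfil3* (0.62) and *Ciart* (−0.11), and the outputs *Tef* (0.37) and *Hlf* (0.53) did not pass. *Hlf* passed without replicate 4 of day 3 or replicates 2 or 6 of day 7 (0.60 to 0.65), *Npas2* without replicates 1 or 4 of day 3 (1.07), *Nr1d2* without replicate 6 of day 3 or replicate 2 of day 7 (0.33 to 0.36) and *Tef* without replicate 4 of day 3 or replicate 2 of day 7 (0.41 to 0.44). *Arntl* lay between 4.86 and 12.2 CPM at day 3 (median 8.92) and between 7.54 and 11.7 CPM at day 7 (median 9.0). Of 21 promoter windows of 16 matched clock genes, 6 (28.6%), of 5 genes, held the E-box CACGTG that CLOCK and its partner recognise, against 7.15% of all windows.

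**Figure D5:**
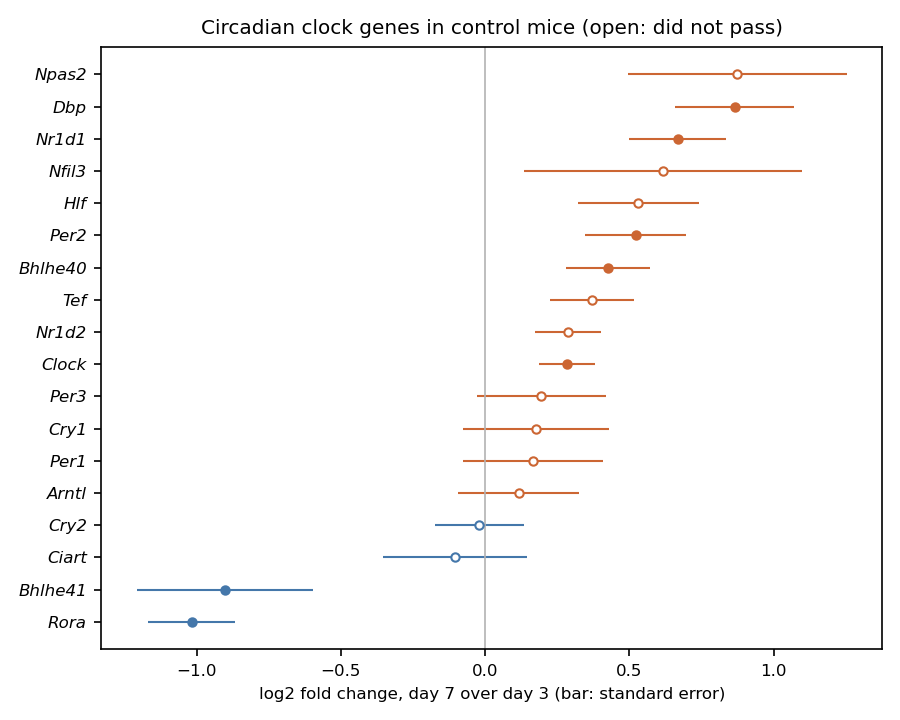
Log2 fold change of day 7 over day 3 with its standard error for 18 of the 19 circadian clock genes in control mice (n = 7 and 6 libraries). Filled points passed an adjusted p under 0.05 (edgeR) and open points did not. Among the 18 genes shown, *Dbp* and *Nr1d1* are the highest of those that passed and *Rora* the lowest, with *Arntl*, *Cry2* and *Per1* near 0, and *Clock* turned below 0 with library totals alone.

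Transcripts of neighbouring organs varied widely between mice of the same day. Of 26 tested genes of pancreatic acinar cells, 1 rose and 0 fell in the edgeR test of all libraries, with a median of −1.5, or −1.49 with *Amy2a5* at its bound. In the shared number range, by contrast, 23 rose, of which 1 had risen with all libraries, and the median was 2.9. The summed level of the list was 1027 to 28120 CPM at day 3 and 3387 to 12330 CPM at day 7. *Cela2a*, a pancreatic elastase, was at 1593 CPM in replicate 2, 1137 CPM in replicate 3 and 265 CPM in replicate 1 of day 3, at 514 CPM in replicate 1 of day 7, and as low as 1.18 CPM in replicate 6 of day 3 and 0.48 CPM in replicate 2 of day 7. Both libraries of day 3 in the shared number range were low (1.18 and 45.2 CPM) and both of day 7 were high (285 and 146 CPM). The proteases and their relatives *Prss2* (−1.57), *Try4* (−1.69), *Try5* (−1.88), *Ctrb1* (−1.38), *Ctrl* (−1.47), *Ctrc* (−1.49), *Cela1* (−1.45), *Cela3b* (−1.6), *Cpa1* (−1.74) and *Cpb1* (−1.77), the lipid enzymes *Pnlip* (−1.37), *Pnliprp1* (−1.5), *Pnliprp2* (−0.60), *Cel* (−1.56), *Clps* (−1.0) and *Pla2g1b* (−1.82), and *Rnase1* (−1.35), *Sycn* (−1.59), *Gp2* (−1.5), *Cuzd1* (−1.53) and *Reg2* (−0.95) did not pass, and with pancreatic and stomach scores in the model the median of the list was 0.012. The pancreatic score was the mean level of the tested members of this same list. A median near 0 was thus built into that model and says nothing about the days. *Amy2a5*, amylase, had at most 3 counts in every day 7 library, so that its mean was at least 1.72-fold lower than that of day 3. It did not pass, and its log2 fold change was 0.11 in the shared number range. *Spink1*, which enterocytes express too, was the member that rose, and *Reg1* lay between 433 and 2198 CPM at day 3 (median 1099) and between 319 and 3573 CPM at day 7 (median 2574), a log2 fold change of 0.92 ± 0.43 SE (adjusted p = 0.109, edgeR). *Reg1* passed without replicate 3 of day 7 (1.16). *Prss1*, *Prss3*, *Try10* and *Cela3a* were not tested.

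Of 15 stomach genes, 5 could be tested and 0 passed, with 0 at an unadjusted p under 0.05 in edgeR. *Gkn3*, a gastrokine, was at 19633 and 2409 CPM in replicates 5 and 7 of day 3 and at 7396 CPM in replicate 2 of day 7, against at most 75.8 CPM in the others. *Pgc* (−0.86) and *Ctse* (0.50) were highest in the same 3 libraries, *Cblif* (1.67) was highest in replicate 2 of day 7 and *Atp4a* (−0.28) was at no more than 1.76 CPM. Without replicate 2 of day 7, *Ctse* had a log2 fold change of −3.24, and 3 stomach genes and 2 Brunner gland genes were lower at day 7. In the shared number range, where replicate 7 of day 3 is the one library high in these transcripts, 2 genes of each list were lower, none of which had passed with all libraries. The genes *Gkn1*, *Gkn2*, *Tff1*, *Muc5ac*, *Psca*, *Anxa10*, *Atp4b*, *Lipf*, *Chia1* and *Pga5* had too few libraries with a count to be tested. Brunner glands, the mucous glands of the first part of the duodenum, had 3 tested genes, of which 0 passed, with 0 at an unadjusted p under 0.05. *Muc6* was at 19469, 2476 and 15521 CPM in the same 3 libraries and at most 66.6 CPM elsewhere, and *Tff2* (−1.37) and *Egf* (−0.94) did not pass. *Pgc* passed without replicate 2 of day 7 (−6.69), *Gkn3* without replicate 2 of day 7 (−7.71), *Cblif* without replicate 5 of day 3 (2.75), *Muc6* without replicate 2 of day 7 (−10.68), *Tff2* without replicate 2 of day 7 (−8.42) and *Egf* without replicate 4 of day 7 (−1.49). Of the squamous genes, *Krt14* alone had enough counts to be tested (−0.028) and was at no more than 4.18 CPM at day 7. Without the 3 libraries with stomach and Brunner gland transcripts 6988 genes passed, and the brush border, lipid and transporter lists had 21, 30 and 20 genes higher.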

How the data were processed

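Per the labels and the study's methods, 3′ messenger RNA libraries (QuantSeq FWD) of proximal small intestine were trimmed by the authors with Cutadapt 2.10 (minimum length 35), aligned with Subread to GRCm38 with spike-in sequences, and counted over exons of Ensembl genes with featureCounts 2.0.1 (mapping quality of at least 30, multi-mapping reads by their primary alignment, reads over several genes split). A strand option is not stated, so reads of overlapping genes on opposite strands may be shared. The deposited values are estimated counts, since 95% are whole and the rest are fractions of split reads, and they were rounded here. The 3720114 to 6337900 counts per library limit the precision of low genes.

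The 13 control libraries were mapped by their titles. Following the study, genes whose count was 0 in most libraries of either day were left out (20646 of 55487 kept). The days were compared in edgeR 4.0.16 by its quasi-likelihood test (R 4.3.3, limma 3.58.1) with TMM factors and Benjamini-Hochberg adjustment over all genes tested (threshold 0.05). Standard errors are the size of the log2 fold change over the square root of F. DESeq2 1.42.0 and other settings were tried as alternatives. The pipeline was tested on simulated data. No 2 libraries held identical values, each library is labelled as 1 mouse, and 0 of 92 spike-in entries had a count in a control library. Knockout libraries and the deposited table of normalized values were not used.

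The comparison and the 45 gene lists were chosen with earlier results of these data known, and 2 lists (villus tip, epithelial cells in general) were added after the values were seen. Genes were named by rule: the 15 largest rises and falls without overlap whose mean reached 100 counts, up to 5 members of a list with the smallest p with its defining members that did not pass, and every member of the lipid, brush border, clock, pancreas and stomach lists. The single values of some genes are not reported here, although the list counts include them. Other members were named after their values were seen.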

Additional observations from a re-analysis of the deposited data

Results flagged for a closer look

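Single libraries stood apart from the others of their day in 119 of 1054 groups of values (11.3%), the genes named above and the mean levels of the gene lists on each day. For independent and normally distributed values chance gives about 1 in 20. Some CPM were near the floor and genes of a list move together, so the shares cannot be compared. A library was taken as apart where the gap to its nearest neighbour, divided by the range of the day, passed the 95% critical value of Dixon's test. Such a library was the highest of its day except in the following cases. At day 3 it was the lowest for *Cox7c*, *Trpm5* and antigen presentation (replicate 5), and for *Epcam* and epithelial cells in general (replicate 2). The same held for *Hspb1* (replicate 1) and *Rps19* (replicate 7). At day 7 it was the lowest for *Abcc2* (replicate 2), *Herpud1* (replicate 1), *Slc12a2* (replicate 3) and *Slc39a4* (replicate 4).

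Replicate 5 of day 3 was apart for genes of stomach, Brunner gland and others, with *Agr2* at 932 CPM, *Anxa10* at 47.6 CPM, *Areg* at 9.01 CPM, *Cblif* at 3.6 CPM, *Clu* at 719 CPM, *Cox7c* at 25.7 CPM, *Ctse* at 165 CPM, *Gcnt3* at 303 CPM, *Gkn1* at 761 CPM, *Gkn2* at 814 CPM, *Gkn3* at 19630.0 CPM, *Hmox1* at 12.9 CPM, *Krt18* at 176 CPM, *Muc5ac* at 64.3 CPM, *Muc6* at 19470.0 CPM, *Onecut3* at 19.6 CPM, *Pgc* at 1480.0 CPM, *Plcb4* at 90.1 CPM, *Pou2f3* at 1.54 CPM, *Psca* at 66.4 CPM, *S100a9* at 3.35 CPM, *Slc12a2* at 738 CPM, *Spdef* at 67.7 CPM, *Sytl2* at 31.6 CPM, *Tff1* at 2092 CPM, *Tff2* at 39600.0 CPM and *Trpm5* at 3.99 CPM. Replicate 2 of day 7 was apart for many of the same stomach and Brunner gland genes, with *Abcc2* at 389.5 CPM, *Agr2* at 755 CPM, *Anxa10* at 66.5 CPM, *Cblif* at 12 CPM, *Chia1* at 0.24 CPM, *Clu* at 316 CPM, *Ctse* at 218 CPM, *Cybrd1* at 60.0 CPM, *Gcnt3* at 169 CPM, *Gfap* at 0.72 CPM, *Gkn1* at 1223 CPM, *Gkn2* at 775 CPM, *Gkn3* at 7396 CPM, *Hspa1a* at 7.44 CPM, *Lum* at 8.4 CPM, *Muc5ac* at 138 CPM, *Muc6* at 15520.0 CPM, *Onecut3* at 12 CPM, *Pgc* at 768 CPM, *Psca* at 108 CPM, *Smtn* at 78.4 CPM, *Spdef* at 45.6 CPM, *Tff1* at 2986 CPM and *Tff2* at 14970.0 CPM. In replicate 3 of day 7, the library lowest in duodenal genes, these were apart, with *Atf3* at 27.6 CPM, *Bhlhe40* at 59.7 CPM, *Defa3* at 204 CPM, *Dusp1* at 25.9 CPM, *Enpp7* at 97.6 CPM, *Epcam* at 1147 CPM, *Fos* at 99.3 CPM, *Hbegf* at 68.6 CPM, *Mptx2* at 629.9 CPM, *Nts* at 16 CPM, *Reg3b* at 3150.0 CPM, *Sct* at 53 CPM, *Slc12a2* at 220.4 CPM, *Slc15a1* at 327 CPM, *Slc23a1* at 162 CPM and *Spink4* at 824 CPM. In replicate 4 of day 3, the highest of that day in absorptive lists, these were apart, with *Ada* at 88.5 CPM, *Adipoq* at 9.05 CPM, *Cd7* at 6.75 CPM, *Cidec* at 23.1 CPM, *Dgat2* at 162 CPM, *Enpp3* at 171 CPM, *Ifit1bl2* at 46.1 CPM, *Il33* at 16.2 CPM, *Nt5e* at 13 CPM, *Por* at 396 CPM, *Slc28a2* at 12.1 CPM and *Slc6a19* at 231 CPM. Replicate 2 of day 3, lowest on the first principal component, was apart mainly for genes of vessels and muscle, with *Actg2* at 174 CPM, *Cnn1* at 201 CPM, *Col6a1* at 95.6 CPM, *Epcam* at 304 CPM, *Flt1* at 222 CPM, *Gm37452* at 64.7 CPM, *Iigp1* at 77 CPM, *Kdr* at 229 CPM, *Ly6a* at 129.5 CPM, *Pdgfrb* at 50.3 CPM, *Prss1* at 0.32 CPM, *Reg2* at 157 CPM and *Tie1* at 44.8 CPM. The others were replicate 1 of day 3 for *Clock* at 115 CPM, *Fabp6* at 0.55 CPM and *Hspb1* at 2.38 CPM, replicate 3 of day 3 for *Mcm7* at 152 CPM, replicate 6 of day 3 for *Ltc4s* at 8.1 CPM and *mt-Nd4* at 27190.0 CPM, replicate 7 of day 3 for *Pdk4* at 16 CPM and *Rps19* at 5.17 CPM, replicate 1 of day 7 for *Herpud1* at 82.5 CPM, *Pax5* at 1.9 CPM, *Prss1* at 0.19 CPM and *Try10* at 0.758 CPM, replicate 4 of day 7 for *Cr2* at 2.92 CPM, *Krt14* at 4.18 CPM and *Slc39a4* at 115 CPM, replicate 5 of day 7 for *Lck* at 10.5 CPM, *Ly6a* at 56.9 CPM and *Psmb10* at 275 CPM and replicate 6 of day 7 for *Cela3a* at 0.178 CPM, *Itgae* at 10.5 CPM and *Mylk* at 990.4 CPM. On the mean log2 CPM of a list, those apart were replicate 2 of day 3 for epithelial cells in general at 7.17, replicate 5 of day 3 for goblet cells at 6.98, antigen presentation at 5.8 and targets of ATF4 at 3.94 and replicate 2 of day 7 for Brunner gland at 9.2 and stomach epithelium at 6.73.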

How the results depend on the processing

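The number of genes past the threshold was within 1.5 times of the main count with DESeq2 (7798), limma-voom with sample quality weights (7736), DESeq2 size factors (7449), filterByExpr (7273), no filter (6994), scores of pancreas and stomach as covariates (7356), without replicates 2 and 3 of day 7 (6165) and with single libraries left out (6427 to 7633). With library totals alone, 1974 genes were higher and 7367 lower at day 7. Tested against a 2-fold change, 138 passed, 132 higher and 6 lower. In the library number range shared by both days, 2933 passed, 1788 higher and 1145 lower. Of the 7442 genes called, 7132 (95.8%) had the same direction with library totals alone. The cause of these differences was not tested.

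With the replicate number as a block (replicate block, replicates 1 to 6 of both days), 5882 genes passed, 3372 higher and 2510 lower. The samples shared only a number, as correlations of the deviations of same-numbered libraries from their day were −0.165 to 0.0993 and 1 of 6 day 3 libraries correlated best with its own number.

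The difference of the totals ranged from 601900 to 954100 counts with single libraries left out. Its exact permutation p, not adjusted over the 3 measures, was under 0.05 without replicate 4 of day 3 (921400, p = 0.0455) and without replicate 2 of day 7 (954100, p = 0.0328). The difference in the share of the 10 most abundant genes ranged from −3.633 to −2.367 percentage points with single libraries left out, was −2.492 without replicates 2 and 3 of day 7 (exact permutation p = 0.106) and −1.99 in the shared number range (p = 0.667, where 2 against 2 libraries cannot go below 0.333). The difference in genes with a count ranged from −1001 to −642 with single libraries left out, was −561 without replicates 2 and 3 of day 7 (exact permutation p = 0.109) and −5 in the shared number range (p = 1). Of 461 named genes tested in both, 44 had the opposite sign in the shared number range, and 20 of these passed there, *Cel* 3.78, *Cela1* 2.72, *Cela2a* 3.21, *Cela3b* 2.85, *Clps* 1.54, *Cpb1* 2.68, *Ctrb1* 3.93, *Ctrc* 3.16, *Ctrl* 3.51, *Cuzd1* 3.96, *Gp2* 2.4, *Pla2g1b* 2.96, *Pnlip* 3.07, *Pnliprp1* 2.82, *Prss2* 3.74, *Reg2* 4.8, *Rnase1* 2.08, *Sycn* 2.63, *Try4* 3.76 and *Try5* 3.14 (log2 fold change). With library totals alone *Mki67* was at −0.34 and *Clock* at −0.075. Without the 3 libraries highest in stomach transcripts *Spdef* was at 0.71, and without the 2 highest in B cell genes *Pax5* was at 0.15. The medians of the fetal-like, antigen presentation, mesothelial, heat shock, p53, stomach, Brunner gland and squamous lists changed sign with some single libraries left out. *Ctse* ranged from −3.24 to 2.88 with single libraries left out. The 3 alternatives that leave out libraries by their stomach, B cell or component values were chosen after seeing the data, and 6988, 6775 and 6604 genes passed in them. In simulated counts of this design, 81% of 200 changed genes were recovered (68.9% of those changed 2-fold and 93.8% of those changed 4-fold), with 8 false calls among 20260 genes, so smaller changes were less often detectable at this depth. The changed genes had an expected mean of at least 10 counts and went up or down at random. In the data 36.0% of genes were called and their split turned with the scaling, which this simulation could not probe. Its rates may thus not hold for the data.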
